A study of Mus musculus with 14 samples.

Results

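Sqor and 8 other genes of sulfide oxidation, transsulfuration and cysteine breakdown were examined in the retinal pigment epithelium (RPE) of rd1 mice with and without Nrf2 overexpression. The set was selected on the measured Sqor levels, which exceeded those of the fellow control eye in every pair, and the 8 others were added for their place in the pathway. The members are Sqor, Ethe1, Tst, Mpst, Suox, Cbs, Cth, Cdo1 and Csad, that is 9 of the 34452 mouse gene rows, and all 9 passed the filter on low counts that left 16289 genes. Because the rise of Sqor was the reason for the choice, its difference between eyes is given as a description without a test.

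The RPE is the pigmented monolayer behind the photoreceptors, and in rd1 mice (strain FVB/N) a loss-of-function mutation in Pde6b leads to early loss of rods. The RPE of 7 mice was collected at postnatal day 20. In every animal an eye had received AAV-Best1-Nrf2 together with AAV-Best1-GFP (the Nrf2 eye), and its fellow eye AAV-Best1-GFP alone (the control eye). Best1 is a human RPE promoter, the transgene is the human NFE2L2 cDNA, and the Nrf2 vector had an AAV8 capsid whereas the GFP vector had a 7M8 capsid, so the Nrf2 eye also received an additional vector. All 14 libraries thus carry the rd1 mutation and the GFP vector, and each was made from amplified polyA RNA of the RPE of a single eye, released from the eyecup after the retina was removed.

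Hydrogen sulfide is made in cells mainly from cysteine and homocysteine, and it is toxic to the respiratory chain when it accumulates. In mitochondria, sulfide:quinone oxidoreductase (Sqor) oxidizes sulfide to a persulfide and passes the electrons to ubiquinone. The persulfide dioxygenase Ethe1, the sulfurtransferase Tst (rhodanese) and sulfite oxidase (Suox) carry the sulfur on to thiosulfate and sulfate. Cbs and Cth form the transsulfuration route from homocysteine to cysteine and can release sulfide, as can Mpst from 3-mercaptopyruvate, while Cdo1 and Csad lead from cysteine to hypotaurine, the precursor of taurine, which the retina holds at high concentration.

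Promoter sequence is shown for Sqor, the member whose level differed most between the eyes. It is also shown for the member window, among those examined, that held a match to the core of the antioxidant response element. This element is the site bound by Nrf2 with small Maf proteins. The core searched was TGACNNNGC on both strands, in the 250 bases before each RefSeq start (GRCm38.p6). The Sqor window (chr2:122771463-122771712, plus strand) held no match. A Mpst window (chr15:78406551-78406800, plus strand) held a match that begins 12 bases before the start, printed in capitals. The other Mpst windows (chr15:78406462-78406711 and chr15:78406854-78407103) held no match.

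Sqor: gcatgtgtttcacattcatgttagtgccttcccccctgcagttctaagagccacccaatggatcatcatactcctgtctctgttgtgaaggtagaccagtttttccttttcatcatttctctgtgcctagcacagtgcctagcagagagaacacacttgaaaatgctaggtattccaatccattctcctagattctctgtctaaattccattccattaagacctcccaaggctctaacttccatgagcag
Mpst: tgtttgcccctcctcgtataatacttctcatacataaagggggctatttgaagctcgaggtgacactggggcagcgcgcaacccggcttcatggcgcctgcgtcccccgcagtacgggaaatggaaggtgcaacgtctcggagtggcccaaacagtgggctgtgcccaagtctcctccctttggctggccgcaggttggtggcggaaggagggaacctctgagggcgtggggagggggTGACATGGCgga

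Of 32851 such windows of all genes, 10.2% held a match, and of the 10 windows of 6 members (Sqor, Ethe1, Suox, Mpst, Csad and Cbs) 1 did. No window of Tst, Cth or Cdo1 was examined. Chromosome 18, which holds Cdo1, was left out of the member windows but not of those of all genes. The absence of a match says only that these letters are not in this window. In the GENCODE M21 annotation the Sqor gene spans chromosome 2, 122765237 to 122809569 on the plus strand, so the window shown lies downstream of its earliest annotated start, whose upstream sequence was not analysed here. The same holds for the Mpst window with the match, as Mpst spans chromosome 15, 78406416 to 78414013 on the plus strand.

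Libraries held from 16548349 to 50543008 counts, and CPM below are counts scaled to the total of the library, without a further factor. The vector transcript, human NFE2L2, stood at 1163 to 8711 CPM in Nrf2 eyes and 1.12 to 1163 CPM in control eyes. Both ends at 1163 CPM were the libraries labelled control 3 and Nrf2 4, which stood apart from their groups in this transcript. Marker genes of the RPE summed to 13783 to 29381 CPM in control and 16885 to 26749 CPM in Nrf2 eyes, and all 10 were detected, with 1 called lower in Nrf2 eyes. Rod markers (6) summed to 18.8 to 420 CPM in control and 6.19 to 82.5 CPM in Nrf2 eyes. Cone markers (6) summed to 38.0 to 839 and 16.8 to 82.1 CPM, with 2 cone markers called lower. Median sums in control and Nrf2 eyes were 89.6 and 8.79 CPM for rod and 272 and 28.6 CPM for cone markers. Fibroblast markers (6) ranged from 110 to 701 CPM in control and from 268 to 1065 CPM in Nrf2 eyes, immune markers (6) from 103 to 298 and from 110 to 412 CPM, endothelial markers (6) from 72.8 to 222 and from 54.8 to 134 CPM, markers shared with Müller glia (4) from 271 to 670 and from 385 to 593 CPM, muscle markers (5) from 9.56 to 228 and from 15.96 to 231 CPM, and blood markers (5) from 555 to 3743 and from 341 to 1376 CPM. No marker of any list was at 3 counts or fewer in all libraries, and the part of other cells in the values below was not tested. In bulk libraries, fewer cells of a type and less RNA per cell cannot be told apart.

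In each of the 7 pairs Sqor was higher on the Nrf2 side, and the groups did not overlap. In Nrf2 eyes 1 to 7 it was 96.4, 56.1, 76.9, 29.4, 61.4, 62.3 and 117.5 CPM, and in control eyes 1 to 7 it was 13.9, 13.5, 24.4, 13.8, 15.3, 15.6 and 19.3 CPM. The means were 71.4 ± 28.8 CPM in Nrf2 eyes and 16.6 ± 3.99 CPM in control eyes (SD, n = 7). The lowest Nrf2 eye (mouse 4) still lay above the highest control eye (mouse 3). Within mice 1 to 7 the level was 6.92-, 4.16-, 3.15-, 2.13-, 4.01-, 4.00- and 6.07-fold higher in the Nrf2 eye, so the smallest rises were in mice 3 and 4. The fitted log2 fold change was 2.16 (SE 0.21), and with mice 3 and 4 left out it was 2.40. Among all 16289 genes tested, 3.28% were higher on the Nrf2 side in all 7 pairs and 1.04% were higher with no overlap between the groups.

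**Figure D1:**
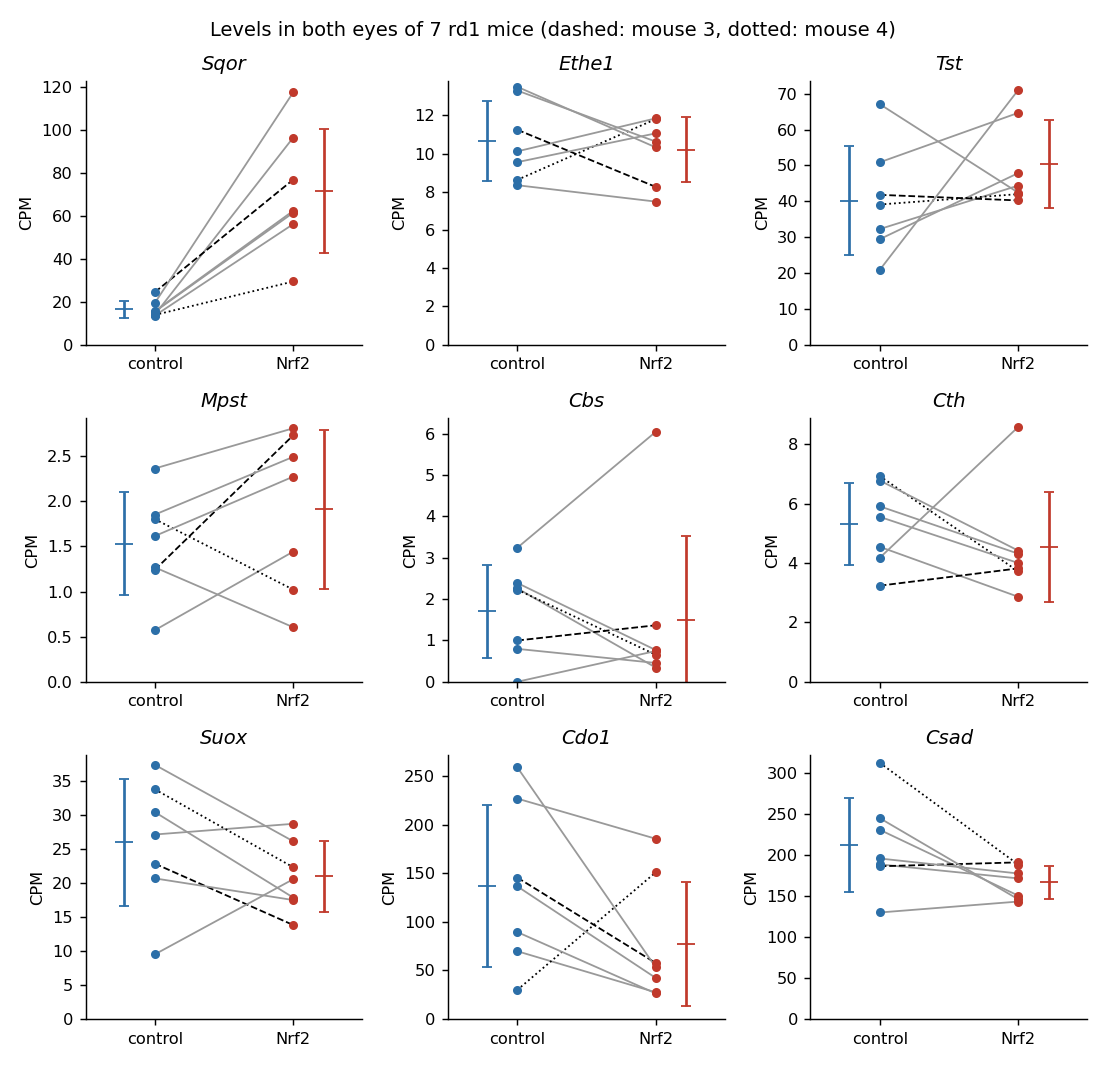
Level of each of the 9 genes in CPM (vertical axes start at 0) in the control and Nrf2 eye of each mouse. Points are libraries, lines join the eyes of a mouse, and the bars beside them give the mean and SD of 7 libraries (for Cbs in Nrf2 eyes the lower bar is cut at 0). Sqor is the member whose points do not overlap between the groups, 29.4 CPM being the lowest in Nrf2 eyes and 24.4 CPM the highest in control eyes.

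The level of Sqor in Nrf2 eyes was also set beside that of the vector transcript. The Nrf2 eyes with the most vector transcript, those of mice 1 (8711 CPM) and 7 (8550 CPM), had the highest Sqor, and the Nrf2 eye with the least, that of mouse 4 (1163 CPM), had the lowest. Between them, mice 3, 2, 6 and 5 had 6735, 5868, 5484 and 4577 CPM of the vector and 76.9, 56.1, 62.3 and 61.4 CPM of Sqor, so the last 3 did not keep the same order. Among control eyes, control 3 had both the most vector transcript (1163 CPM) and the most Sqor (24.4 CPM). In the 6 other control eyes the vector ranged from 1.12 to 175 CPM and Sqor from 13.5 to 19.3 CPM, and the second highest Sqor there was in control 7, with 7.79 CPM of the vector.

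**Figure D2:**
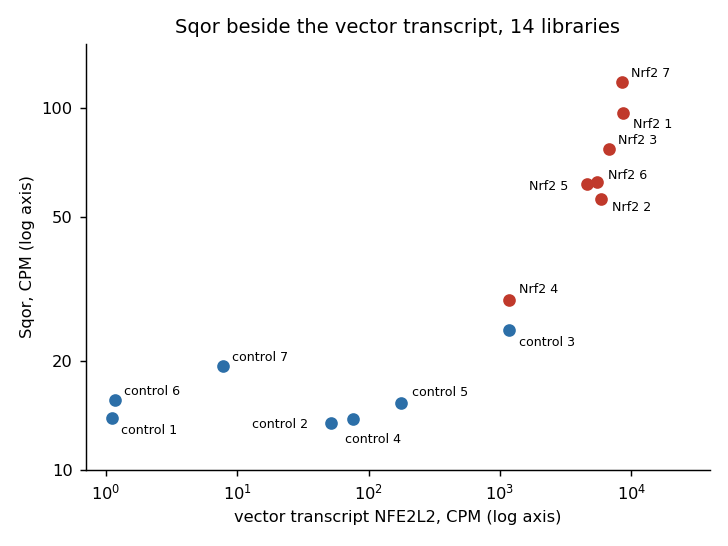
Sqor (vertical, CPM) against the vector transcript NFE2L2 (horizontal, CPM) in the 14 libraries, both on log axes, red for Nrf2 and blue for control eyes. Control 3 (24.4 CPM of Sqor) and Nrf2 4 (29.4 CPM) sit side by side at 1163 CPM of the vector, between the 6 other control eyes and the 6 other Nrf2 eyes.

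None of the 8 other members passed the adjusted p threshold of 0.05 in the paired edgeR quasi-likelihood test, in which 3.43% of all genes did (2.94% higher and 0.491% lower in Nrf2 eyes). At an unadjusted p under 0.05 the count was also 0 of 8, beside 18.1% of all genes. DESeq2 and voom each called 0 of 8, where they called 11.9% and 15.9% of all genes. The median log2 fold change of the 8 was -0.13, against -0.04 over all genes tested. With mice 3 and 4 left out 0 of 8 passed, where 4.5% of all genes did. Differences within a mouse are log2 CPM without a further scaling factor, whereas the fitted values include the TMM factors of the libraries, so small values can differ in sign.

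**Figure D3:**
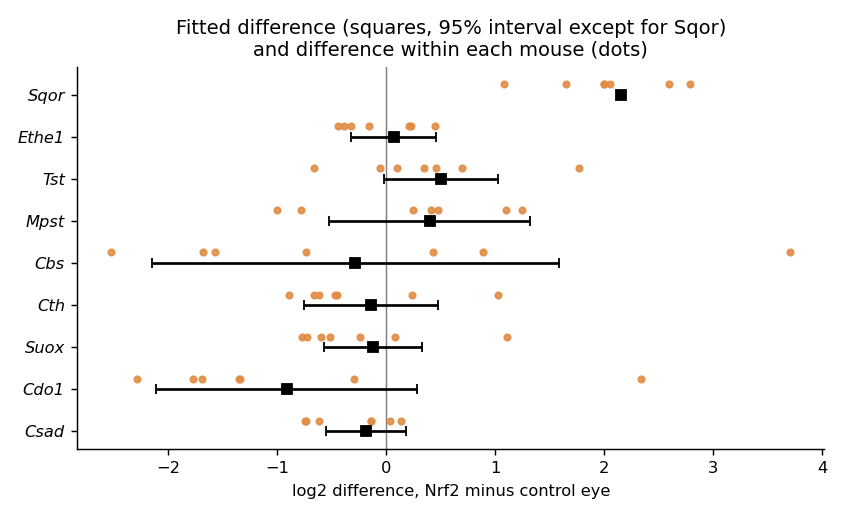
Log2 difference between Nrf2 and control eye for each gene. Squares are the fitted values, with 95% intervals for the 8 genes not used to choose the set, and dots are the differences within each of the 7 mice. The interval spans 0 for each of the 8, and Sqor, shown without one, has its square at 2.16.

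Ethe1, which oxidizes the persulfide made by Sqor, differed little between libraries. It lay at 7.49, 10.6 and 11.8 CPM (lowest, median and highest) in Nrf2 eyes and at 8.34, 10.1 and 13.5 CPM in control eyes. The ranges overlapped almost entirely, and the Nrf2 eye was higher in 3 of 7 mice. Its fitted log2 fold change was 0.07 (SE 0.17, edgeR adjusted p 0.87), with a 95% interval of 0.80- to 1.37-fold. Ethe1 (chromosome 7, 24587543 to 24608925) shares 99 exonic bases with Zfp575 on the other strand, and reads there cannot be assigned, since no setting that uses strand is stated.

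Tst was the nearest to the threshold of the 8. It lay at 40.2, 44.4 and 71.0 CPM in Nrf2 eyes and at 20.8, 39.1 and 67.1 CPM in control eyes. In the control group 4 of 7 eyes were below the lowest Nrf2 eye, but control 5 was higher than 6 of the 7 Nrf2 eyes. The Nrf2 eye was higher in 5 of 7 mice, most of all in mouse 6, where control 6 had the lowest level of any library. The fitted log2 fold change was 0.51 (SE 0.23, edgeR adjusted p 0.29), and the 95% interval ran from 0.99- to 2.04-fold.

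Mpst, a cytosolic and mitochondrial sulfurtransferase of the same family, lies next to Tst on chromosome 15 in the opposite orientation, with 508 bases between the annotated genes (Tst 78399556 to 78405907, Mpst 78406416 to 78414013). The level of Mpst was low, with 10 to 142 counts in Nrf2 and 23 to 98 counts in control eyes. It lay at 0.60, 2.27 and 2.81 CPM in Nrf2 and at 0.57, 1.61 and 2.36 CPM in control eyes, and 3 Nrf2 eyes were above all control eyes. The log2 fold change was 0.40 (SE 0.40, edgeR adjusted p 0.63), with an interval of 0.70- to 2.50-fold. Per length of exon, Tst was 7.62 to 38.2 times as high as Mpst in control and 9.98 to 53.7 times in Nrf2 eyes. Of the 31-base words of Tst transcripts 0.353% and of those of Mpst 0.562% occur in transcripts of any other gene.

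Suox, which oxidizes sulfite to sulfate with a molybdenum cofactor, was lower in the Nrf2 eye of 5 of 7 mice. It lay at 13.8, 20.5 and 28.6 CPM in Nrf2 and at 9.47, 27.1 and 37.3 CPM in control eyes, and both the lowest and the highest library were control eyes. It had a log2 fold change of -0.12 (SE 0.20, edgeR adjusted p 0.80, interval 0.67- to 1.26-fold).

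Of the transsulfuration enzymes, Cbs was close to the limit of detection. It had 15 to 100 counts in Nrf2 eyes and 0 to 97 counts in control eyes, at 0.34, 0.74 and 6.04 CPM in Nrf2 and 0, 2.23 and 3.24 CPM in control eyes. Nrf2 2 was far above the other Nrf2 eyes, and control 6 was the library with no count, at which the limit of 3 counts applies. The log2 fold change was -0.28 (SE 0.82, edgeR adjusted p 0.89), and its 95% interval ran from 0.23- to 3.00-fold. Of the 31-base words of Cbs transcripts 6.08% occur in transcripts of any other gene, the highest share among the members. Cth, the second enzyme of the route, lay at 2.86, 4.00 and 8.58 CPM in Nrf2 and 3.24, 5.55 and 6.93 CPM in control eyes and was lower in 5 of 7 Nrf2 eyes. Its highest library was also Nrf2 2. The log2 fold change was -0.14 (SE 0.27, edgeR adjusted p 0.83, interval 0.59- to 1.39-fold).

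Cdo1, cysteine dioxygenase, the entry to the sulfinate and taurine branch, had the largest log2 fold change in size after Sqor and the widest spread among the well-detected members. It lay at 26.3, 53.3 and 185.6 CPM in Nrf2 and at 29.8, 136.6 and 259 CPM in control eyes, with means of 77.6 ± 63.9 and 136.8 ± 83.1 CPM (SD, n = 7). The Nrf2 eye was lower in 6 of 7 mice (log2 differences of -2.28 to -0.29), and in mouse 4 the difference was 2.34. Over all mice the fitted value was -0.91 (SE 0.53, edgeR adjusted p 0.40). When mouse 4 was left out it was -1.33 with an adjusted p of 0.0187, in a fit where 12.6% of all genes passed, and in the fit without mice 3 and 4 it was -1.38 with an adjusted p of 0.0553. Over the 14 libraries, which share mice and groups, log2 Cdo1 correlated at -0.72 with the summed markers shared with Müller glia and at -0.58 with those of the RPE. These were the largest in size among the marker lists, the others lying between -0.36 (fibroblast) and 0.10 (blood). The part of any of these cells in the values of Cdo1 was not tested.

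Csad, which turns cysteine sulfinate into hypotaurine, had the highest CPM of the set in control eyes. It lay at 143, 171 and 191 CPM in Nrf2 and at 129.8, 195.6 and 312 CPM in control eyes. Nrf2 eyes were close to each other, with a coefficient of variation of 12.1% against 27.0% in control eyes, and the Nrf2 eye was lower in 5 of 7 mice. Its fitted log2 fold change was -0.18 (SE 0.16, edgeR adjusted p 0.58), with an interval of 0.68- to 1.13-fold. Csad (chromosome 15, 102176999 to 102204724) shares 278 exonic bases with Zfp740 on the other strand, and 4.63% of its 31-base words occur in that gene's transcripts.

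The libraries labelled control 3 and Nrf2 4, given to different mice by the labels, were alike over all genes and in the members. Over 15548 genes with more than 3 counts in the 4 libraries of mice 3 and 4, they were a median of 1.08 times apart, where the eyes of mouse 3 and of mouse 4 were 1.34 times apart. They were closer to each other than the eyes of mouse 3 in 79.0% of these genes and than the eyes of mouse 4 in 80.4%. Across the 9 genes their levels were 1.00 to 1.53 times apart, with a median of 1.05. Cdo1 stood at 145.7 and 151 CPM, Tst at 41.8 and 42.0 CPM and Csad at 186 and 188 CPM. The eyes of mouse 3 were 1.03 to 3.15 times apart and those of mouse 4 1.07 to 5.07 times, and 8 and 9 of the 9 genes, respectively, were closer between control 3 and Nrf2 4 than between the eyes of the same mouse. Without these mice the mean of Sqor was 78.8 ± 26.9 CPM in Nrf2 and 15.5 ± 2.31 CPM in control eyes (SD, n = 5), which is 5.07 times as high, where all 7 mice gave 4.32 times.

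To order the members by level, CPM were divided by the merged exon length of each gene in kilobases. In control eyes the order was Cdo1 (83.2 ± 50.5 CPM per kb), Csad (55.5 ± 14.98), Tst (12.7 ± 4.82), Suox (10.4 ± 3.73), Ethe1 (7.19 ± 1.41), Sqor (4.05 ± 0.98), Cth (1.90 ± 0.49), Mpst (0.71 ± 0.27) and Cbs (0.23 ± 0.15; SD, n = 7). Cdo1 exceeded Csad in 4 of 7 control eyes, Tst exceeded Suox in 4 and Suox exceeded Ethe1 in 5, so these neighbours did not differ beyond their spread. Csad was above Tst, Sqor above Cth and Cth above Mpst in all 7 without overlap of the ranges, and Ethe1 was above Sqor in 7 of 7 eyes although the ranges overlapped. Mpst exceeded Cbs in 6 of 7.

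In Nrf2 eyes Sqor stood in the third place instead of the sixth, at 17.5 ± 7.04 CPM per kb. It was above Tst (15.9 ± 3.89) in 4 of 7 eyes and below Csad (43.5 ± 5.27) in all 7. The ratio of Sqor to Ethe1 per length lay between 0.41 and 0.79 in control eyes and between 0.91 and 4.68 in Nrf2 eyes. The ratio of Sqor to Suox lay between 0.25 and 1.01 in control and between 0.81 and 3.41 in Nrf2 eyes. The order depends on the length used. With the length of the longest transcript, which for Sqor is 1985 instead of 4084 bases, Sqor was above Ethe1 in 4 of 7 control eyes, and the ratio of Sqor to Ethe1 was 0.85 to 1.62 in control and 1.86 to 9.63 in Nrf2 eyes.

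**Figure D4:**
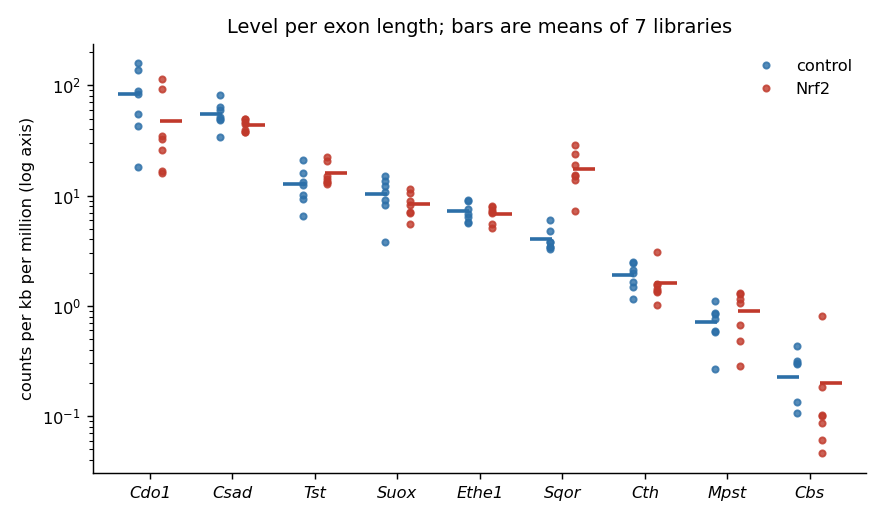
Level of each gene per kilobase of merged exon (vertical, CPM per kb, log axis), ordered by the control mean. Points are libraries, blue for control and red for Nrf2 eyes, and the horizontal bars are means of 7 libraries (the control 6 library with 0 counts of Cbs cannot be drawn). Sqor moves from the sixth place in control (mean 4.05) to the third in Nrf2 eyes (mean 17.5).

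The genes whose log2 CPM over the 14 libraries was most like that of Sqor were Esd, Tmem158, Gsta1, Gclm and Vps50, out of 12024 genes with at least 5 CPM on average. Their Pearson correlations with Sqor were 0.990, 0.989, 0.989, 0.988 and 0.988. These 14 points fall into the 2 groups, share mice and were chosen as the most alike, so the values are a description. Gclm, for the modifier subunit of glutamate-cysteine ligase, averaged 1268 ± 565 CPM in Nrf2 and 167 ± 81.7 CPM in control eyes, and Gsta1, an alpha-class glutathione S-transferase, 511 ± 264 and 46.6 ± 24.8 CPM (SD, n = 7). Esd, for the esterase that completes the glutathione-dependent removal of formaldehyde, averaged 324 ± 118 and 82.8 ± 21.4 CPM. Tmem158 averaged 169 ± 89.8 and 19.4 ± 9.38 CPM, and Vps50, for a subunit of an endosomal tethering complex, 118 ± 35.8 and 33.4 ± 5.90 CPM. Gsta1 has close paralogs, and how far its reads can be told from theirs was not examined. The members themselves correlated with Sqor between -0.53 (Cdo1) and 0.48 (Tst) over the 14 libraries, which pools the 2 groups. Within Nrf2 and within control eyes the values were -0.75 and 0.25 for Cdo1 and 0.35 and 0.30 for Tst.

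Genes of 6 neighbouring pathways were compared in the same fit. Of 48 genes listed 46 were tested, 1 passed the threshold, and the median log2 fold change was -0.02, beside 3.43% called and a median of -0.04 over all genes. DESeq2 called 6 and voom 13 of the 46, where they called 11.9% and 15.9% of all genes, and 13 of the 46 had an unadjusted edgeR p under 0.05, as did 18.1% of all genes. The gene that passed was Mocs1, which catalyses the first step in the synthesis of the molybdenum cofactor that Suox needs. It lay at 26.4, 37.7 and 42.5 CPM in Nrf2 and at 18.3, 21.999 and 27.5 CPM in control eyes. The Nrf2 side was higher in 7 of 7 pairs, and the groups overlapped only through Nrf2 4 (26.4 CPM) and control 3 (27.5 CPM). The log2 fold change was 0.84 (SE 0.15, edgeR adjusted p 0.0236). The adjusted p exceeded 0.05 when mouse 1, 3, 5 or 7 was left out, with 0.0894 as the highest, while the log2 fold change lay between 0.75 and 0.92 whichever mouse was left out. In the fit without mice 3 and 4 it was 0.91, with an adjusted p of 0.05002. The 3 others of that list, Mocs2, Mocs3 and Gphn, had log2 fold changes of -0.36, -0.03 and -0.15 and did not pass in the main fit. Mocs2, in the direction opposite to Mocs1, was called by voom and in the edgeR fit without mouse 4. These called 15.9% and 12.6% of all genes.

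**Figure D5:**
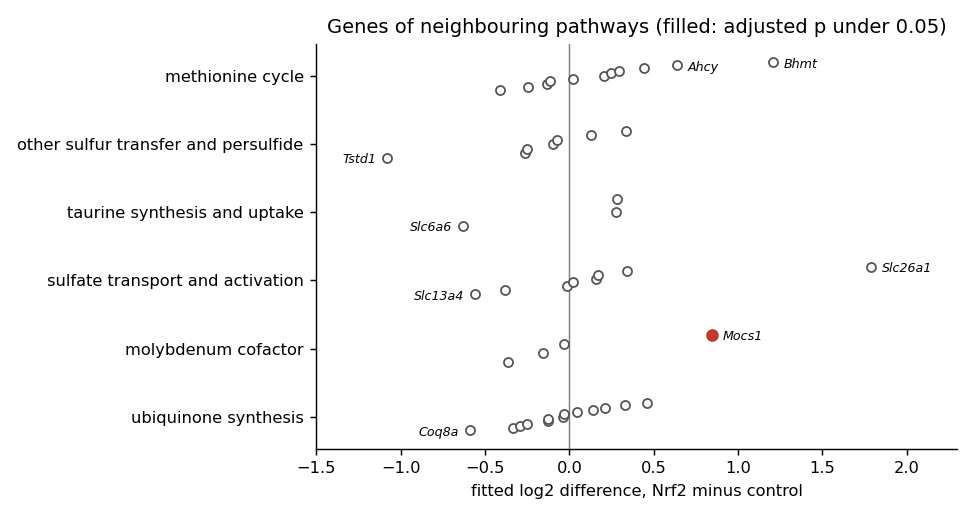
Fitted log2 difference between Nrf2 and control eyes (horizontal) for the 46 tested genes of 6 neighbouring pathways, a line of points for each. Filled points passed an adjusted p of 0.05, and genes beyond 0.55 in size are named. The filled point is Mocs1, at 0.84.

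In the methionine cycle, which supplies homocysteine to Cbs, 0 of 11 tested genes passed in edgeR. An unadjusted edgeR p under 0.05 was reached by 3, beside 18.1% of all genes. The median log2 fold change was 0.20. DESeq2 and voom both called Ahcyl1, which had a log2 fold change of 0.44 in edgeR. Bhmt, which remethylates homocysteine with betaine, had a value of 1.21 (SE 0.73, edgeR adjusted p 0.42). Mat1a, the liver form of methionine adenosyltransferase, did not reach the count filter. Of 7 other genes of sulfur transfer and persulfide formation 0 passed in edgeR (1 at an unadjusted p under 0.05, median -0.10). Voom called Tstd1 and Selenbp1, whose edgeR log2 fold changes were -1.08 and -0.25. Of 13 genes of ubiquinone synthesis, the electron acceptor of Sqor, 0 passed in edgeR (3 at an unadjusted p under 0.05, median -0.04). DESeq2 called Pdss2 and Coq8a, and voom these and Coq2. Pdss2 and Coq2 had edgeR log2 fold changes of 0.46 and 0.21, in the direction opposite to Coq8a. The nearest in edgeR was the kinase-like gene Coq8a, with a log2 fold change of -0.59 (SE 0.13, edgeR adjusted p 0.0515). Its level was 24.7 ± 7.65 CPM in Nrf2 and 40.1 ± 10.2 CPM in control eyes (SD, n = 7). By CPM without a further factor, Coq8a was lower in the Nrf2 eye of 7 of 7 mice. So were Got2 of the sulfur transfer list and Gphn, at edgeR adjusted p of 0.60 and 0.46. The share of all genes lower in 7 of 7 mice was not determined. Of 8 genes of sulfate transport and activation 0 passed in edgeR (2 at an unadjusted p under 0.05, median 0.09), the sulfate transporter Slc26a1 having the largest log2 fold change at 1.79 (SE 0.58, edgeR adjusted p 0.15). DESeq2 and voom both called Slc26a1, and voom also Slc26a11 and Slc13a4, whose edgeR log2 fold changes were 0.34 and -0.56.

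Of the genes of taurine synthesis and uptake, 3 of 4 were tested and 0 passed in edgeR (median log2 fold change 0.28). An unadjusted edgeR p under 0.05 was reached by 2, beside 18.1% of all genes. The taurine transporter Slc6a6 averaged 384 ± 78.2 CPM in Nrf2 and 687 ± 267 CPM in control eyes (SD, n = 7) and was lower in the Nrf2 eye of 6 of 7 mice, with a log2 fold change of -0.63 (SE 0.24, edgeR adjusted p 0.21). Ado, which oxidizes cysteamine to hypotaurine, had a log2 fold change of 0.28 (SE 0.09, edgeR adjusted p 0.15) and was higher in 6 of 7. DESeq2 and voom both called Ado, and voom also Fmo1, whose edgeR log2 fold change was 0.28.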

How the data were processed

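RNA of the RPE was measured in 14 libraries, 7 Nrf2 and 7 control eyes of 7 mice. The authors amplified it with a low-input kit and processed reads in bcbio-nextgen: alignment to mm10 with Ensembl release 91 transcripts by STAR, featureCounts, and in parallel Salmon 0.9.1 with tximport and DESeq2. What was deposited is a table of estimated counts, as whole numbers for each gene and not scaled between libraries. Which counter made them is not stated, and the row set (transcript genes and the vector) was taken as Salmon's. Samples were on 2 sequencing runs, and the run of each library is not given, so no comparison within runs was made. Of 34452 mouse rows, 34401 matched GENCODE M21, which gave symbols, positions and lengths.

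The main test was the edgeR 4.0.16 quasi-likelihood F-test (R 4.3.3) on all rows with mouse and treatment as terms, TMM and filterByExpr (minimum count 10), with Benjamini-Hochberg adjustment over 16289 mouse genes and a threshold of 0.05. The vector row stayed out of that adjustment. Intervals are 95% intervals for the fitted mean difference between the eyes and do not give the range of single mice. SE were derived from the F statistic. Log2 CPM used a prior count of 2. Pairs are the eyes of an animal, by the number of the individual in the labels. The study's methods name 6 pairs at this age and the labels 7, all of which were used. Deviations from group means correlated between the eyes of a mouse at 0.04, 0.15, 0.10, -0.43, 0.39, -0.25 and 0.18 in mice 1 to 7 over 12012 genes.

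The members and lists were chosen with earlier results of these data known. Named genes were the members, the list genes past the threshold and the 5 genes most correlated with Sqor. Other list genes were named after their values were seen. Marker lists were written from textbook knowledge. The alternatives were no block, RLE, DESeq2 1.42.0, voom with quality weights (limma 3.58.1), no filter, each mouse left out, mice 3 and 4 left out, another gene length and, added after the data were seen, removal of the vector row before scaling with library sizes summed over tested genes. The fit was tested on simulated data with the same dispersion for every gene, so the differing spread of the members was not modelled.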

Additional observations from a re-analysis of the deposited data

Results flagged for a closer look

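Of 20 groups of 7 values (the 9 members and Mocs1 in Nrf2 and in control eyes), 2 had a highest or lowest library far from the rest, where chance alone gives about 1 in 20. Both were in Nrf2 2, the library with the fewest counts. Cbs stood at 6.04 CPM there, where the other Nrf2 eyes had at most 1.37 CPM, and Cth at 8.58 CPM, where the others had at most 4.42 CPM. Both are low genes, and no cause was tested.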

How the results depend on the processing

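Of the log2 fold changes of Mocs1 and the 8 members other than Sqor under 14 alternatives, 116 of 126 kept their direction and their side of the threshold. Sqor, whose direction the choice of the set fixed, lay between 2.00 and 2.31 with 1 mouse left out. The sign turned for Ethe1 under voom (-0.0124), for Suox with mice 3 and 4 left out (0.028), and with 1 mouse left out for Ethe1 (range -0.0205 to 0.13) and Cbs (-0.78 to 0.097). The number of other members called was 0 in each alternative except without mouse 4 (range 0 to 1 with 1 mouse left out, the gene being Cdo1). The number of all genes called was 559, but 1943 in DESeq2, 2590 in voom, 347 with no filter and 111 to 2050 with 1 mouse left out. Without a replicate block for the pairing it was 1100, of which 547 were shared, and the block changed no call of a member. Pathway genes called were 1, but 6 in DESeq2, 13 in voom, 0 with mice 3 and 4 left out, 2 without the replicate block, 2 with the vector row removed before scaling and 0 to 5 with 1 mouse left out. With the longest transcript as the length, 4 members took another place in the order of control levels. The causes of these shifts were not tested. Mpst and Cbs had at most 142 and 100 counts in a library, and counting error was not separated from the spread between mice.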
